A study of Mus musculus with 2 samples.

Results

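The 10 transcription factor genes described here, Atf3, Sox11, Jun, Stat3, Smad1, Klf4, Klf6, Klf7, Klf9 and Myc, are known for their part in the growth state of injured neurons. They were chosen by name, and all 10 are among the 31053 genes of the count tables. The data come from dissociated dorsal root ganglia (DRGs), which hold the cell bodies of sensory neurons with the glia around them, of 2-week-old mice of the Swiss strain, both sexes, kept for 3 days in culture. Cells were detached with trypsin and run with the 10x 3' v3 kit as 2 libraries, A and B, on the same chip, and these are the replicates of this single condition (n = 2). The sources used here do not state that A and B came from separate animals or cultures, so the spread between them may be technical. Ganglia that had not been cultured were not analysed here, and the values describe levels after 3 days and not a change from the intact ganglion.

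Cutting an axon changes which genes a sensory neuron transcribes. In peripheral neurons, stress kinases of the DLK and JNK pathway act on Jun, a subunit of the dimeric AP-1 factors, and Atf3, a partner of Jun, is among the classic injury-induced genes of DRG neurons. Sox11 belongs to the group C SOX factors of immature neurons. Stat3 carries signals of cytokines that use the receptor gp130, and Smad1 carries those of bone morphogenetic proteins (BMPs). The Krüppel-like factors (KLFs) bind GC-rich DNA, and from work on central neurons Klf6 and Klf7 are known to promote neurite growth and Klf4 and Klf9 to limit it. Myc drives growth and proliferation in many cell types.

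Each cell barcode carries counts of unique molecular identifiers (UMIs), each of which counts a captured transcript once. After filters of at least 200 genes and at most 10% mitochondrial UMIs, 10730 of 10948 barcodes were kept, 5066 in A and 5664 in B. Of these, 7 barcodes occur in both libraries. Clusters were drawn with the 10 genes and the lists below held out (131 genes), and were named from marker genes: 808 neurons (434 in A, 374 in B), 9450 glial cells (4422 and 5028), 389 fibroblasts (173 and 216) and 83 macrophages (37 and 46). The summed level of 10 neuron markers was 10220 and 10360 CPM (UMIs of a gene per 1000000 UMIs of the class) in neurons, against 202.2 and 179.9 CPM in glia, and that of 9 glial markers was 815.3 and 914.6 CPM in neurons, against 9556 and 9305 CPM in glia. The median neuron had 28338 UMIs, against 4723 in glia, 11510 in fibroblasts and 9203 in macrophages. CPM values of a class are sums over its cells in a library. They are shares of that class's UMIs and not amounts per cell. Over genes with at least 10 UMIs, the chi-square per degree of freedom between A and B was 2.2 in neurons, 1.52 in glia, 1.84 in fibroblasts and 1.77 in macrophages, so the libraries differed beyond counting noise.

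All 10 genes are annotated as protein-coding in GENCODE vM21 on the build of the counts, mm10 (GRCm38). Atf3 (ENSMUSG00000026628) lies on the minus strand at chr1:191170296-191218039, Sox11 (ENSMUSG00000063632), a gene with 1 exon, on the minus strand at chr12:27334264-27342574, and Jun (ENSMUSG00000052684), also with 1 exon, on the minus strand at chr4:95049034-95052222. Klf7 (ENSMUSG00000025959) spans chr1:64029447-64122282 on the minus strand, with 4 exons in its principal transcript. Whether a read came from a gene or from an antisense neighbour was not tested. Jun (Junos), Klf7 (Gm13748 and Gm26649), Stat3 (Stat5a) and Atf3 (Gm24748) have genes on the opposite strand that overlap them.

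The RefSeq promoter table (GRCm38.p6) holds 9 of the 10 genes. Below are the 150 bases before the annotated start of Atf3, Sox11 and Jun, whose levels moved together across neurons, of Klf6, which shares a match with Sox11 and Jun, and of Klf7 and Stat3, whose levels were even. Capitals mark matches, on either strand, to TGACNTCA and TNACGTCA, which are forms of the 8-base site of CREB and ATF factors, and to TGANTCA, the 7-base AP-1 site.
Atf3, chr1:191183334-191183483, minus strand: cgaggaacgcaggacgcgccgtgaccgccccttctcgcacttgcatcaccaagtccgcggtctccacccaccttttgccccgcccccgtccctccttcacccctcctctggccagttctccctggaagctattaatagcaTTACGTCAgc
Sox11, chr12:27342719-27342868, minus strand: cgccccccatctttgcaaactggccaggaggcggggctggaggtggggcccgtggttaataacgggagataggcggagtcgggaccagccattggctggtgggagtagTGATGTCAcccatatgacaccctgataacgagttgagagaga
Jun, chr4:95052223-95052372, minus strand: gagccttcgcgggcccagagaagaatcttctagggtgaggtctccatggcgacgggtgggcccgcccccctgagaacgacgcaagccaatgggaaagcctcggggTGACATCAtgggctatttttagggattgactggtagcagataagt
Klf6, chr13:5861339-5861488, plus strand: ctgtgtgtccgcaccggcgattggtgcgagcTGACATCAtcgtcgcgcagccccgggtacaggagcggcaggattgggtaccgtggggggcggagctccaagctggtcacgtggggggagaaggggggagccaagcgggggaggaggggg
Klf7, chr1:64121390-64121539, minus strand: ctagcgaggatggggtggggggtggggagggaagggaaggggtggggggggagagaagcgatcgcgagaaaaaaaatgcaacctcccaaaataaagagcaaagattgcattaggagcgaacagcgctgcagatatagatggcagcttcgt
Stat3, chr11:100939541-100939690, minus strand: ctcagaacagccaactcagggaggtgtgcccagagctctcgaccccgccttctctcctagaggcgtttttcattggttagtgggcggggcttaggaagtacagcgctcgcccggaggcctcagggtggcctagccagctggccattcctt

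In the 250 bases before the start, Jun and Klf6 each held TGACATCA, and Sox11 held TGATGTCA, which is the same 8 bases read from the other strand. TGACNTCA occurs in 7.49% of all 32851 promoter windows of that length, and TNACGTCA, which Atf3 and Klf9 held, in 2.52%. The AP-1 site TGANTCA was in 1 member window, that of Klf9, and in 6.75% of all windows. The STAT site TTCNNNGAA was again in that of Klf9 alone, and in 7.02% of all windows, while the E-box CACGTG bound by MYC was in those of Klf4 and Klf6, and in 6.02% of all windows. Smad1, the member most like Sox11 over all groups (correlation 0.95), held a match to none of these motifs. Its window and those of Klf4 and Klf9 are not shown, so the windows shown cannot say whether a match goes with a pattern. These motifs were chosen after the sequences had been seen, and a match is a description of the letters and no evidence of binding. The windows of Atf3 and Klf7 lie wholly inside the GENCODE genes, so each is that of 1 of the possible starts.

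Neurons and glia differed in 9 of the 10 genes. Levels of Sox11, Atf3, Klf7, Smad1, Stat3 and Myc were higher in neurons, and those of Klf4, Jun and Klf9 were lower, while Klf6 did not pass. Counts summed per class and library were compared with edgeR's quasi-likelihood test with the library as a block, with Benjamini-Hochberg adjustment over all 11928 genes tested. The variable genes used for clustering were left out of the tests, while the members and lists, held out of the clustering, stayed in. Here and below, shares and medians of all genes are those of the genes tested. They lack many of the most variable genes, so the members and lists are not set beside a like set. Neurons and glia are so unlike that 34.1% of all genes were higher in neurons and 48.4% lower, with a median log2 fold change of -0.22. The median of the 10 members was 0.92. Against this background 6 genes higher and 3 lower is no count that singles out the members, and the sizes below are what the comparison gives.

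Sox11 had 535.2 and 541.2 CPM in neurons (libraries A and B in that order here and below), against 3.82 and 2.74 CPM in glia, 4.72 and 3.74 in fibroblasts, and 0 and 22.9 in macrophages. All neuron values lie far above those of the other classes. The log2 fold change was 7.39 ± 0.11 (SE) against glia, 6.79 ± 0.19 against fibroblasts and 5.34 ± 0.27 against macrophages, with adjusted p of 2.9e-27, 2.2e-21 and 1e-14 in edgeR's test. The glial level is 0.713% and 0.506% of the neuronal one. For 6 genes known from neurons (Snap25, Scn9a, Elavl3, Calca, Isl1 and Prph) the glial level was 0.531% to 2.51% of the neuronal one. Whether Sox11 UMIs in glia are expression there or RNA carried over from neurons was not tested. In macrophages of library B those 6 genes stood at 2.67% to 9.62% of their neuronal level, with Sox11 at 4.23%, and the 10 neuron markers summed to 468.7 CPM there, against 85.57 CPM in A.

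Atf3 had 373 and 404.9 CPM in neurons, against 61.0 and 63.0 CPM in glia, 5.19 and 9.97 in fibroblasts and 128.4 and 141.7 in macrophages. The classes do not overlap, and the glial level, 16.3% and 15.5% of the neuronal one, is above that of the neuron genes in glia. The log2 fold change was 2.68 ± 0.06 against glia (adjusted p = 7.6e-24, edgeR), 5.45 ± 0.14 against fibroblasts and 1.4 ± 0.13 against macrophages.

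Jun, unlike its partner Atf3, was higher in glia. It had 305.7 and 321.9 CPM in neurons, against 913.8 and 907.1 in glia, 174.5 and 206.9 in fibroblasts and 358.9 and 247.9 in macrophages. Jun was lower in neurons than in glia by a log2 fold change of -1.5 ± 0.06 (adjusted p = 9.6e-19, edgeR) and higher than in fibroblasts by 0.5 ± 0.08. Against macrophages the ranges overlapped (-0.05 ± 0.12, adjusted p = 0.75, edgeR). Fos and Fosb, immediate early genes that also rise when tissue is dissociated, were likewise low in neurons, with 61.7 and 70.9 CPM of Fos against 606.5 and 593.9 CPM in glia, and 14.6 and 18.9 CPM of Fosb against 256.5 and 257.5 CPM in glia. Whether handling during detachment had a part in the glial Jun level was not tested.

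**Figure D1:**
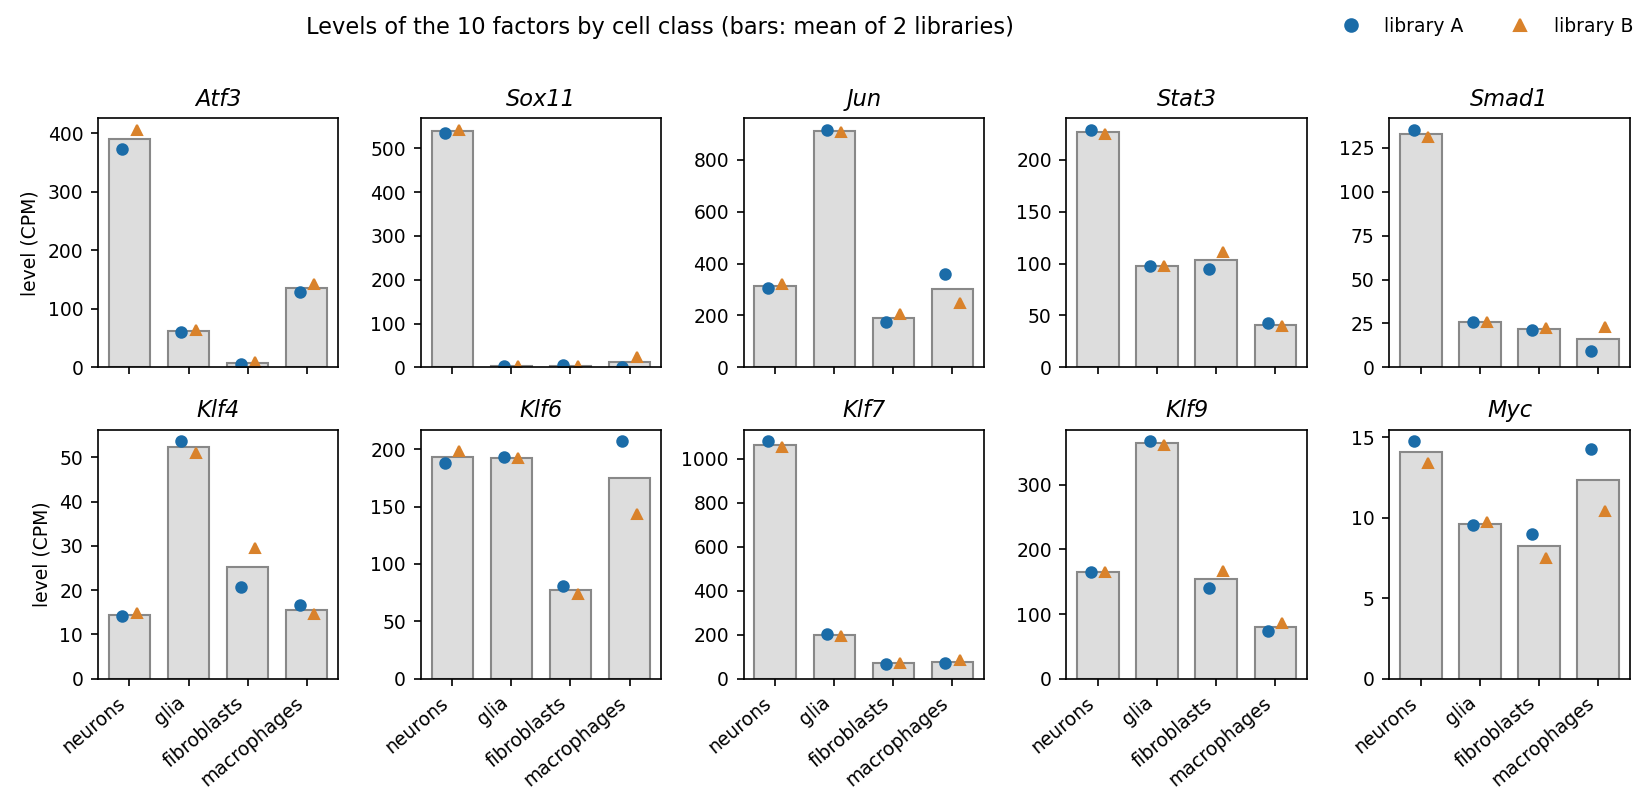
Level of each factor in CPM (vertical axis, linear, its own scale per panel) in neurons, glia, fibroblasts and macrophages. Points are the libraries A and B, and bars are their mean. Sox11, Klf7 and Smad1 are highest in neurons in both libraries, Jun, Klf4 and Klf9 in glia, and Klf6 is at 193.3 CPM in neurons and 192.6 CPM in glia.

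The factors that carry outside signals were higher in neurons. Stat3 had 228.4 and 224.3 CPM in neurons, against 97.8 and 97.7 in glia, 94.8 and 111.3 in fibroblasts and 42.8 and 39.6 in macrophages. Its log2 fold change against glia was 1.25 ± 0.06 (adjusted p = 3.9e-17, edgeR). Smad1 had 135 and 131 CPM in neurons, against 25.8 and 25.6 in glia, 21.2 and 22.4 in fibroblasts and 9.51 and 22.9 in macrophages, where it rests on 4 and 11 UMIs. Its log2 fold change against glia was 2.41 ± 0.07 (adjusted p = 1.6e-21, edgeR).

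The 4 KLF genes fell into 3 patterns. Klf7 had 1078 and 1051 CPM in neurons, against 204.9 and 195.9 in glia, 68.9 and 69.4 in fibroblasts and 68.9 and 83.3 in macrophages. It was higher in neurons in all 3 comparisons, with log2 fold changes of 2.44 ± 0.05, 3.73 ± 0.08 and 3.68 ± 0.12. Klf4 and Klf9 went the other way against glia. Klf4 had 14.1 and 14.9 CPM in neurons, against 53.6 and 51.0 CPM in glia (log2 fold change -1.82 ± 0.1), and Klf9 had 164.7 and 165.3 CPM in neurons, against 366.9 and 361.3 CPM in glia (-1.11 ± 0.06). Klf4 was also lower in neurons than in fibroblasts, by -1.02 ± 0.18, where its levels were 20.8 and 29.5 CPM, and Klf9 was higher than in macrophages, by 0.93 ± 0.17.

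Klf6 had 187.7 and 198.9 CPM in neurons, against 192.9 and 192.4 in glia, 81.1 and 73.5 in fibroblasts and 206.8 and 143.7 in macrophages. Its neuronal values lie on both sides of the glial ones (log2 fold change 0.04 ± 0.06, adjusted p = 0.54, edgeR), while it was higher than in fibroblasts by 1.12 ± 0.09. The Klf6 call against glia changed under 4 alternatives, and the cause was not tested. Without neurons under 5000 UMIs the log2 fold change was 0.31 (adjusted p = 2.4e-05, edgeR) and the median of all genes 0.05, and at a 5% mitochondrial limit it was 0.34 (adjusted p = 0.00043, edgeR) with a median of -0.18. With no gene held out of the clustering it was 0.31 (adjusted p = 1.5e-05, edgeR) with a median of 0.05. With DESeq2 it was 0.23 (adjusted p = 0.043) with a median of -0.03. In the main fit that median was -0.22. It was higher under all 4 alternatives, but nearly unchanged at the 5% limit. The SE values do not include such differences between settings.

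Myc was low everywhere, with 14.7 and 13.4 CPM in neurons, against 9.52 and 9.73 in glia, 8.96 and 7.48 in fibroblasts and 14.3 and 10.4 in macrophages. It was higher in neurons than in glia by 0.59 ± 0.12 (adjusted p = 5.5e-05, edgeR) and than in fibroblasts by 0.58 ± 0.24 (adjusted p = 0.038, edgeR), where the value rests on 19 and 18 UMIs. The call against fibroblasts was lost with DESeq2 (0.6, adjusted p = 0.076), at a 20% mitochondrial limit (0.29, adjusted p = 0.27, edgeR) and at a clustering resolution of 0.5 (0.32, adjusted p = 0.22, edgeR).

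Against fibroblasts 8 members were higher in neurons and 1 was lower, where 30.9% of all genes were higher and 34.3% lower. Against macrophages 6 were higher and none was lower, where 20% of all genes were higher and 19.3% lower. Klf9 did not pass against fibroblasts (-0.11 ± 0.08), and Jun, Klf4, Klf6 and Myc did not pass against macrophages. Only 37 and 46 macrophages stand behind these values, and there the SE of Klf4 and Myc was 0.43 and 0.44. With DESeq2 40.8% of the genes called against macrophages were higher in neurons, against 51% with edgeR. For glia, the share of calls that were higher in neurons was 41.3%, and 52.2% where no gene was held out of the clustering.

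**Figure D2:**
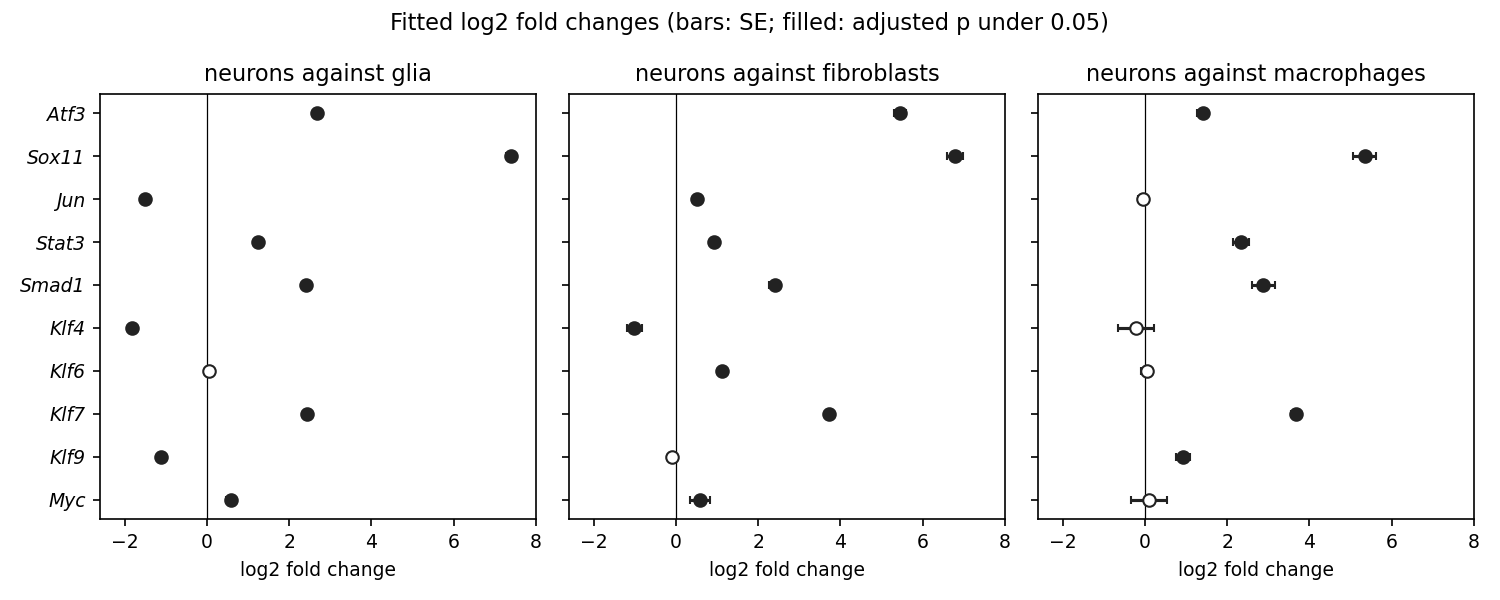
Log2 fold change of neurons against glia, fibroblasts and macrophages (horizontal axis) for each of the 10 factors. Points are edgeR estimates, bars are SE, and filled points passed an adjusted p of 0.05. Sox11 lies farthest to the right against each class, and Klf6 lies at 0.04 against glia.

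Glia were not uniform in these factors. With the 131 genes held out, 9450 glial cells formed 5 clusters: G0, led by Ccnd2 and Apoe, with a sum of 10900 and 10580 CPM over 4 SGC markers, G1, led by Tgfbi and Igfbp5 with 1763 and 1761 CPM of those markers, and G2, G3 and G4, with 4410 to 5027 CPM over 10 genes of dividing cells, where G0 and G1 had 286.7 to 375.3 CPM. Each cluster was tested against the mean of the other 4 over 10042 genes not used for clustering. The clusters and the tests come from the same cells, so a p-value here says how closely a gene follows the clusters in both libraries.

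Atf3 was highest in G1. It had 234 and 226.5 CPM in G1, against 40.6 and 39.9 in G0, 11.2 and 12.6 in G2, 23.3 and 20.7 in G3 and 54.2 and 44.6 in G4. The log2 fold change of G1 was 3.11 ± 0.06 (adjusted p = 8.9e-74, edgeR). The 6 markers of repair Schwann cells summed to 437 and 405.7 CPM in G1, against 83.9 and 80.2 in G0 and 249.9 and 263.1 in G4. Myc, with 19.5 and 14.4 CPM in G1 against 10.9 and 12.1 in G0 and 4.28 and 4.87 in G2, was also higher in G1, by 1.2 ± 0.16.

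Jun was higher in both clusters with few dividing cells, with 1140 and 1132 CPM in G0 and 1038 and 1022 in G1, against 788.9 and 795.8 in G2, 703 and 627.4 in G3 and 634.7 and 658 in G4. Klf9 was highest in G0, with 506.5 and 517.2 CPM there, against 200.1 to 364.8 CPM in the other 4 clusters (log2 fold change 0.82 ± 0.03). Klf4 divided the clusters differently: it had 55.4 to 67.3 CPM in G0, G2 and G3, and 22.5 to 26.2 CPM in G1 and G4, and its log2 fold change was -1.04 ± 0.1 in G1 and -0.95 ± 0.11 in G4. Klf7 followed the same split, with 209.7 to 238.4 CPM in G0, G2 and G3 and 130.2 to 146.5 CPM in G1 and G4. Sox11 passed in no glial cluster at its 3 to 29 UMIs per cluster and library (adjusted p from 0.14 to 0.61, edgeR).

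In G0, 7 members were higher and 1 was lower, where 28.3% of all genes were higher and 19.9% lower. In G1 it was 5 and 3 (21.2% and 22.2% of all genes), in G2 3 and 6 (23.8% and 22.5%), in G3 4 and 4 (17.6% and 16.5%) and in G4 2 and 6 (19.1% and 17.2%). The 7 genes higher in G0 were Jun, Klf9, Klf4, Klf6, Klf7, Stat3 and Myc.

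**Figure D3:**
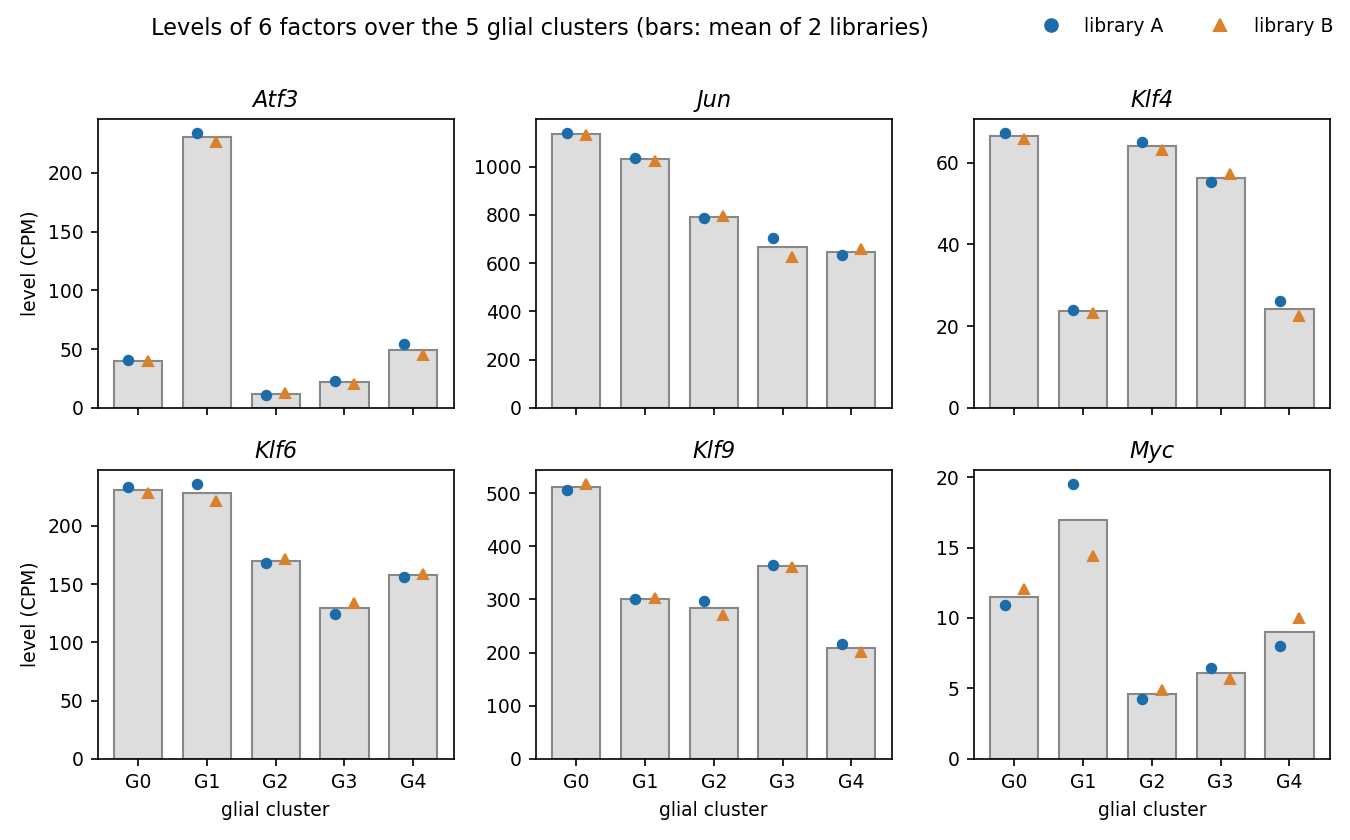
Level of 6 factors in CPM (vertical axis, linear, its own scale per panel) in the glial clusters G0 to G4. Points are the libraries A and B, and bars are their mean. Atf3 is at 230.2 CPM in G1 and at most 49.4 CPM elsewhere, while Klf4 is low in G1 and G4.

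Among neurons the members differed far more in some genes than in others. The 808 neurons formed 10 clusters, of which N0 to N6 held at least 20 cells in each library and were tested, each against the mean of the other 6, over 9319 genes not used for clustering. N0 was led by Anxa1, Flnc and Sprr1a, N1 by Alkal2, Ngfr and S1pr3, N2 by Penk, Crh and C1ql2, N3 by Mrgpra3, N4 by Ly6c1 and Cck, N7 by Slc14a1 and Inhba, and N8 by Lpar3. N1 and N4 had the highest sums over 6 peptidergic markers among the deeply read clusters, with 12100 and 10670 CPM in N1 and 9903 and 10580 CPM in N4, against 185.3 and 103.6 CPM in N2. Some clusters are doubtful as neurons of 1 kind. N5 held shallow cells with a median of 1649.5 and 1171.5 UMIs. N6 of library B carried macrophage markers at 1383 CPM, against 2.33 CPM in A. N9, with 26 cells, carried 8675 and 9729 CPM of glial markers and only 1707 and 2319 CPM of neuron markers. Leaving out N5, N6 and N9 changed no call for the members in the comparisons between classes. N5 and N6 stayed in the tests between neuron clusters, with the same weight as any other cluster, and those tests were not rerun without them. As for glia, clusters and tests come from the same cells, so a p-value says how closely a gene follows the clusters in both libraries.

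Atf3 ranged 55-fold over the neuron clusters. It had 784.2 and 1073 CPM in N2, 765.4 and 933.5 in N7 and 679 and 621.8 in N0, and only 16.3 and 17.5 in N1 and 16.1 and 24.5 in N3. N4 and N8 were also low, with 57.9 to 83.6 CPM, and N5 and N6 lay between, with 383.3 to 475 CPM. Log2 fold changes were 2.99 ± 0.09 in N2, 2.39 ± 0.09 in N0, -3.78 ± 0.18 in N1 and -3.46 ± 0.19 in N3, all with adjusted p at or below 5.7e-25 in edgeR's test.

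Sox11 followed a similar order. It had 1458 and 1592 CPM in N2 and 891.7 and 838.4 in N0, against 98.2 and 81.0 in N1, 116.7 and 137.2 in N3 and 172.3 and 120.6 in N4. In contrast to Atf3, every neuron cluster was at least at 60.9 CPM in both libraries, above the 0.90 to 5.08 CPM of the glial clusters. That lowest value is from N9 of library A, the cluster with glial markers, and rests on 3 UMIs. With N5 and N9 left out, N1 was the lowest. Its log2 fold changes were 2.61 ± 0.07 in N2, 1.66 ± 0.07 in N0, -2.17 ± 0.11 in N1, -1.56 ± 0.11 in N3 and -1.38 ± 0.11 in N4.

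Jun shared the extremes but not the middle of this order. It had 672 and 670.7 CPM in N2, against 85.6 and 72.3 in N1 and 68.3 and 73.4 in N3. In N4 Jun was at 347.1 and 385.3 CPM, close to the 386.2 and 377.7 CPM of N0, although Atf3 in N4 was at 83.6 and 57.9 CPM. The tests of N4 thus had opposite signs, with Jun higher (0.49 ± 0.09) and Atf3 lower (-1.37 ± 0.16). Jun was highest in N9, with 792.3 and 867.6 CPM, which is the cluster with the most glial markers. The 9 glial markers were also found in the others, with 765.3 and 848.7 CPM in N0, 728 and 764.8 in N1, 1375 and 1112 in N2, 281.7 and 180.9 in N3 and 893.8 and 584.6 in N4. Whether glial RNA had a part in the neuronal levels of Jun, Klf4 and Klf9, all higher in glia, was not tested.

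Klf6 and Smad1 varied less. Klf6 had 292.7 and 339.4 CPM in N2 and 322.4 and 263.4 in N4, against 52.9 and 68.2 in N3 and 39.7 and 58.5 in N8. Smad1 had 183.7 and 188.4 CPM in N2 and 185.1 and 177.1 in N0, against 71.5 and 71.7 in N1 and 67.0 and 72.5 in N3. Klf9 was highest, N5 and N9 apart, in N0, with 215.8 and 238.1 CPM, and lowest in N8, with 90.1 and 106.1 CPM.

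Klf7 and Stat3 were the most even members. Leaving out N5 and N9, mean levels of Stat3 differed 1.57-fold between its lowest cluster (N7, 181.6 CPM) and its highest (N4, 285.1 CPM), and those of Klf7 differed 1.79-fold, between 778.6 CPM in N6 and 1390 CPM in N2. Over the same 8 clusters Atf3 differed 55-fold, Sox11 17-fold and Jun 9.48-fold. Klf7 was as high in N3 (1342 and 1369 CPM), where Atf3 and Jun were low, as in N2 (1349 and 1431 CPM), where they were high. Klf4 and Myc had 2 to 72 UMIs per cluster and library in N0 to N4, too few to rank most clusters, but both were higher in N0 (1.14 ± 0.24 and 1.33 ± 0.26). Myc was also higher in N2 (1.05 ± 0.33), where Klf4 did not pass (0.67 ± 0.32). Both were lower in N3 (Klf4 -1.39 ± 0.43 and Myc -1.48 ± 0.56).

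By count, N0 had 9 members higher and none lower, where 11.2% of all genes were higher and 4.67% lower. N2 had 8 and none (14.5% and 8.65%), N6 5 and 1 (10.5% and 6.13%), N5 1 and 1 (1.12% and 2.01%) and N4 3 and 3 (10.7% and 6.16%). N1 had none higher and 6 lower (16.6% and 8.41%), and N3 had 2 higher, Klf7 and Stat3, and 8 lower (20.1% and 12.9%). The 10 members are not independent of each other, since cells of the same cluster supply all their values.

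**Figure D4:**
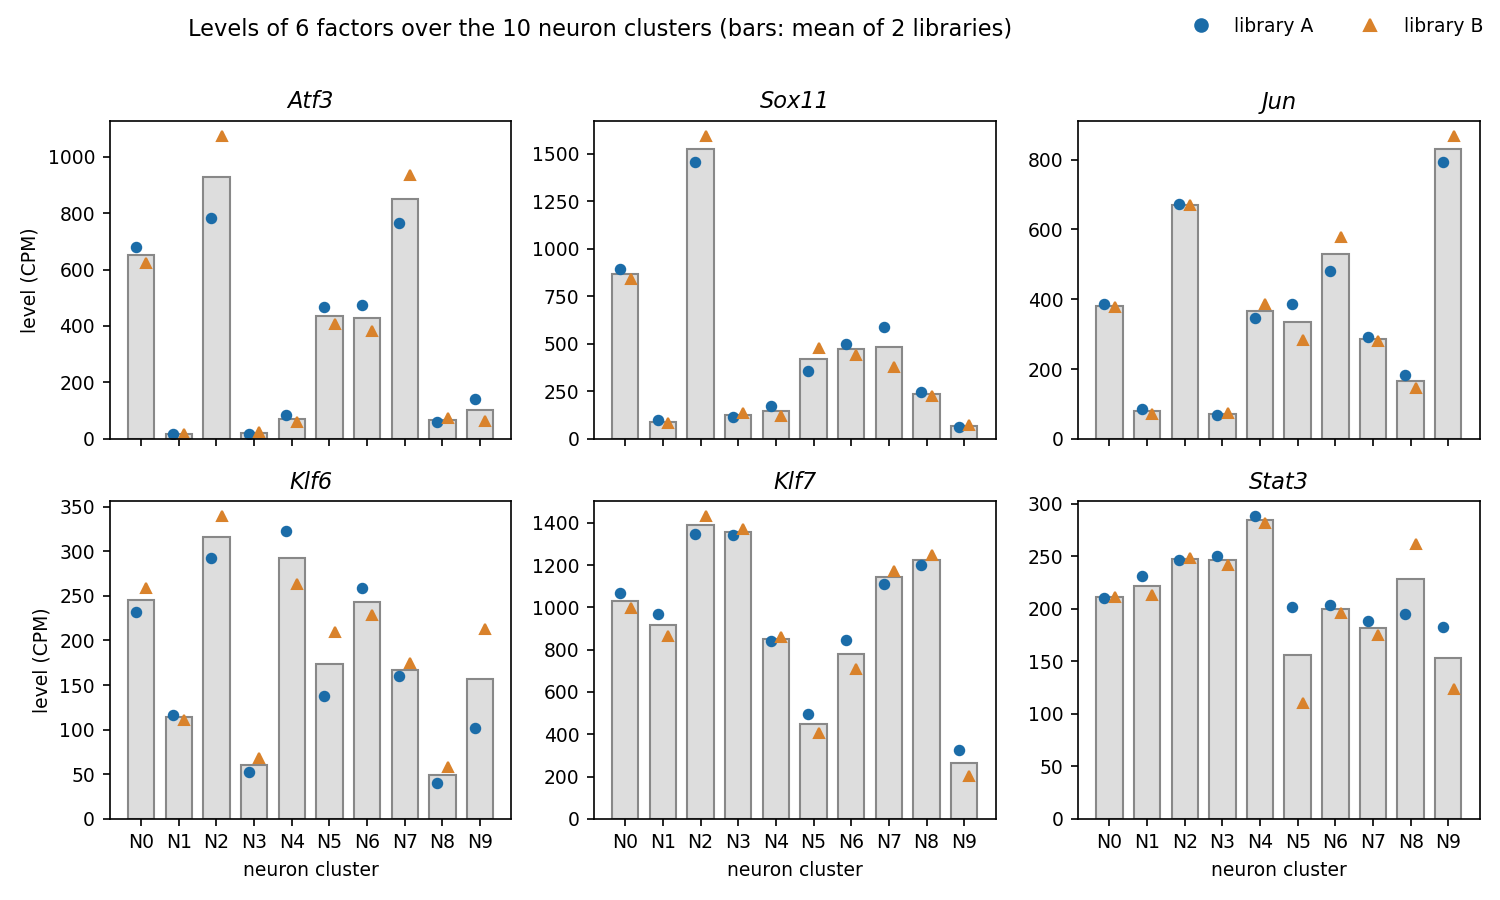
Level of 6 factors in CPM (vertical axis, linear, its own scale per panel) in the neuron clusters N0 to N9. Points are the libraries A and B, and bars are their mean. Atf3 and Sox11 are high in N0 and N2 and low in N1 and N3, Jun is also high in N4, and Klf7 and Stat3 change little outside N5 and N9.

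To compare single cells at the same depth, 10000 UMIs were drawn from each neuron, which left out 129 of 808 neurons, most of N5 and N9 among them, and kept 372 neurons in A and 307 in B. Klf7 was then detected in 99.7% of neurons, Stat3 in 86.8% and 90.6%, Sox11 in 86.0% and 79.2%, Jun in 81.7% and 77.2%, Klf9 in 75.8% and 74.3%, Klf6 in 71.2% and 73.0%, Smad1 in 68.0% and 66.8% and Atf3 in 58.6% of each library. Klf4 was detected in 13.4% and 10.7%, and Myc in 11.6% and 11.1%. A gene that is not detected at this depth may still be expressed. The median neuron of A held 1 Atf3 UMI of 10000 and that of B 2, with an upper quartile of 7 and a highest value of 22 and 24.

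At 2000 UMIs per cell, the depth that also fits glia, Atf3 was detected in 38.0% ± 0.41 of neurons and 9.28% ± 0.0112 of glial cells (SD, n = 2), Sox11 in 48.3% and 0.634%, and Jun in 41.0% ± 3.25 and 77.2% ± 0.41. Without thinning the shares were 63.0% of neurons and 17.1% of glial cells for Atf3, and 83.2% and 93.1% for Jun. As a measure of free RNA, Elavl3, Isl1 and Calca, which are known from neurons, were detected at 2000 UMIs in 46.7%, 15.0% and 53.9% of neurons and in 0.485%, 0.0662% and 11.7% of glial cells. The Sox11 share in glia lies within that range. The Atf3 share in glia lies below that of Calca, while its glial level relative to neurons (16.3% and 15.5%) lies above that of Calca (1.58% and 2.04%).

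Most neurons carried the 3 genes Atf3, Sox11 and Jun together or lacked Atf3. All 3 were detected in 200 of 372 neurons of A (53.8%) and 165 of 307 of B (53.7%), and none of them in 15 (4.03%) and 31 (10.1%). Sox11 and Jun without Atf3 were found in 69 (18.5%) and 42 (13.7%) neurons. Atf3 was rarely without the others: with neither of them in 2 and 3 neurons, without Sox11 but with Jun in 6 and 6, and without Jun but with Sox11 in 10 and 6.

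Atf3 and Sox11 were both detected in 56.5% and 55.7% of neurons, where the product of their shares is 50.4% and 46.4%. The odds ratio of their detection was 9.97 in A and 13.8 in B, and within clusters, pooled by Mantel and Haenszel, it was 2.45 and 2.61. For Atf3 and Jun it was 9.48 and 16.7, and 2.45 and 2.01 within clusters, and for Sox11 and Jun 2.58 and 6.43, and 1.04 and 2.39. The odds ratios moved with depth and with what counts as detected. Averaged over the libraries, that of Atf3 and Sox11 was 16.0 at 5000 UMIs, 6.82 at 20000 UMIs and 43.6 where at least 2 UMIs were required. That of Atf3 and Jun was 6.11 at 5000 UMIs, 25.6 at 20000 UMIs and 6.85 without thinning. For all 3 pairs the odds ratio within clusters was smaller than the one over all neurons, in both libraries. The Spearman correlation of the thinned counts of Atf3 and Sox11 was 0.748 and 0.752 over 372 and 307 neurons, which share their library and were brought to the same depth. These are descriptions of cells and carry no p-value.

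**Figure D5:**
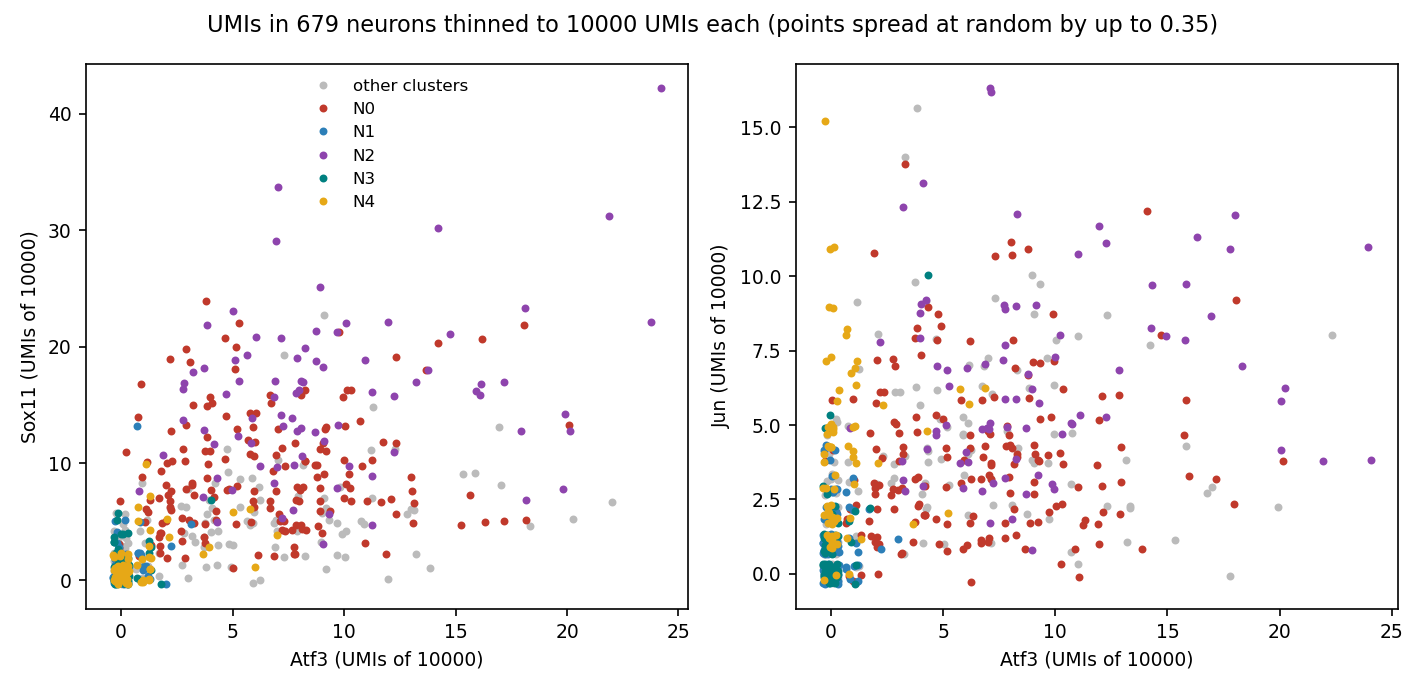
UMIs of Atf3 (horizontal axis) against those of Sox11 (left) and Jun (right), out of 10000 drawn per cell, in 679 neurons of both libraries. Each point is a neuron, coloured by cluster. Neurons of N0 and N2 spread to high values of both genes, those of N1 and N3 lie near the origin, and part of N4 has Jun but no Atf3.

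The cluster shares show the same division. All 3 genes were detected in 100% of N2 neurons (44 and 39 cells), 89.6% and 94.0% of N0, 79.2% and 70.6% of N7, 73.5% and 75.0% of N6 and 32.6% and 18.8% of N4. In N1 the shares were 8.96% and 5.56%, in N3 6.52% and 2.94%, and in N8, with 16 cells in each library, 6.25% and 25.0%. Stat3 had an odds ratio of 0.807 and 0.74 with Atf3 (0.751 and 1.06 within clusters), of 0.892 and 0.92 with Jun (0.826 and 0.81 within clusters) and of 1.76 and 1.04 with Sox11 (2.76 and 1.36 within clusters). The lowest odds ratio of Stat3 in each library was with Klf9, at 0.345 and 0.476 (0.314 and 0.482 within clusters).

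Only 1 neuron in each library lacked a Klf7 UMI, so the 9 pairs with Klf7 were left out of the following counts. Over the other 36 pairs of members, the odds ratio was above 1 in both libraries for 29 and below 1 in both for 3. Within clusters these counts were 18 and 6. The pairs share genes and are not independent. Pairs of other genes were not counted, so these counts cannot show whether the members differ from genes in general. A median of 7 members was detected per neuron in both libraries (mean 6.53 and 6.41). Neurons of N2 had a median of 8, and those of N3 5 and 4.

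Genes known to accompany axon growth followed Atf3 to different degrees. In the neurons at 10000 UMIs, Sprr1a, a small proline-rich protein induced after axotomy, averaged 11.5 UMIs in A and 13.6 in B in neurons with an Atf3 UMI, against 0.221 and 0.094 UMIs in neurons without. Flrt3, a membrane protein that promotes neurite outgrowth, averaged 3.5 and 3.79 UMIs, against 0.318 and 0.268, and had the highest rank correlation with Atf3 of the list (0.783 and 0.777). Nts, the neuropeptide neurotensin, averaged 43.7 and 43.6 UMIs in neurons with Atf3, against 2.93 and 5.35. Gap43, the growth cone protein GAP-43, was high in both, with 23.1 and 21.9 UMIs in neurons with Atf3, against 16.9 and 16.8 in those without. The neuropeptide Gal averaged 42.4 and 36.6 UMIs in neurons with Atf3, against 22.1 and 26.3 in those without, with a rank correlation of 0.063 and -0.005. Adcyap1, which encodes PACAP, had a negative one (-0.191 and -0.3). For Stat3 the rank correlation with Sprr1a was 0.073 and 0.015, and with Flrt3 0.002 and 0. All these values are over the neurons of all clusters and were not taken within clusters. Differences between clusters therefore enter them, and Sprr1a was among the leading genes of N0 and N2, where Atf3 was high.

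The other genes of the members' pathways were compared between neurons and glia in the same fit, where 34.1% of all genes were higher in neurons and 48.4% lower, with a median of -0.22. The counts of each list below stand beside these shares and carry no test of the list. Of 20 AP-1, ATF, CREB and CEBP partners, 12 were higher in neurons and 7 lower (median log2 fold change 0.37). Ddit3 (3.12 ± 0.07), Atf5 (2.17 ± 0.07), Atf4 (1.62 ± 0.06) and Cebpb (1.56 ± 0.07) were the highest, and Fosb (-3.92 ± 0.09), Fos (-3.15 ± 0.07), Cebpd (-3 ± 0.08) and Junb (-2.3 ± 0.06) the lowest.

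Of 10 tested genes of the DLK and JNK pathway, which acts on Jun, 9 were higher in neurons and none lower (median 1.61), where 34.1% of all genes were higher and 48.4% lower. Mapk10, which encodes the neuronal kinase JNK3, had 72.7 and 69.3 CPM in neurons, against 1.38 and 1.48 CPM in glia (5.65 ± 0.12), and the scaffold gene Mapk8ip2 had a log2 fold change of 5.53 ± 0.1. Map3k13 (2.55 ± 0.33) and Map3k12 (0.93 ± 0.1), which encode the kinases LZK and DLK, were also higher. Map2k7 did not pass (0.15 ± 0.08).

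In the gp130 and STAT pathway, 7 of 19 tested genes were higher in neurons and 7 lower (median 0.07). Among receptors, Lifr, the LIF receptor, had 253.6 and 241.7 CPM in neurons, against 47.6 and 43.1 CPM in glia (2.48 ± 0.06), and Osmr was higher by 1.19 ± 0.11. Il6ra (-2.32 ± 0.16) and the feedback inhibitor Socs3 (-2.23 ± 0.1) were lower in neurons. Il6 was called higher in neurons on 7 and 2 UMIs, with no UMI in glia.

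Of 20 tested BMP and SMAD genes, 3 were higher in neurons and 11 lower (median -0.73). The receptor Bmpr2 (0.99 ± 0.06) and the BMP antagonist Nog (3.48 ± 0.38) were higher, and so was Smad9, a close relative of Smad1, with 53 and 45 UMIs in neurons and 2 and 4 in glia. The BMP target genes Id1 (-1.73 ± 0.16), Id2 (-1.75 ± 0.08) and Id3 (-2.74 ± 0.1) and the TGF-β effector Smad3 (-2.82 ± 0.22) were lower. Smad1 itself was higher in neurons, so the Id genes and Smad1 differed in opposite directions.

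Relatives of Sox11, of the KLF members and of Myc went in both directions. Sox4, a group C relative with 97.4 and 107.2 CPM in neurons against 396.3 and 394.9 CPM in glia (-1.92 ± 0.06), and Sox12 (-0.72 ± 0.09) were both lower in neurons, where Sox11 was higher. Of 10 tested KLF genes that are no members, 3 were higher and 5 lower (median -0.14), close to the shares of all genes, with Klf8 (2.63 ± 0.23) and Klf5 (2.18 ± 0.1) at the top and Klf15 (-2.75 ± 0.31) and Klf3 (-1.64 ± 0.09) at the bottom. Of 9 tested genes of the MYC and MAX network, 1 was higher, Mnt (0.48 ± 0.09), and 6 were lower, with Mxd3 at -3.47 ± 0.12 (median -0.71).

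Of 22 tested growth-associated effectors, 20 were higher in neurons and 2 lower (median 5.15), many of them genes of neurons in general. Sprr1a had 624.8 and 727.2 CPM in neurons, against 4.29 and 3.53 CPM in glia (7.46 ± 0.09), and Nts (7.44 ± 0.11), Gal (7.43 ± 0.14) and Ecel1 (7.02 ± 0.13) were of the same size. Tubb6 (-2.21 ± 0.07) and Chl1 (-1.78 ± 0.06) were lower in neurons.

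Across all groups (fibroblasts, macrophages and the glial and neuron clusters, 17 groups in 2 libraries, 34 points), the genes most like each member in log2(CPM + 1) were found among 10259 genes, as a description. The clusters of a class share a library and most of what sets that class apart, so the points are not independent. Those nearest to Sox11 were Ppef1 (0.973), Srxn1 (0.966) and Stmn4 (0.965), and Stmn4 was also nearest to Smad1 (0.966). Atf3 had no such close neighbour among them, with Las1l (0.883), Flrt3 (0.858) and Cited2 (0.821) leading. Stat3 was nearest to Map1a (0.934), Klf4 to Cdk6 (0.927), Klf6 to Prss12 (0.826), Klf7 to Arl8a (0.969), Klf9 to Fermt2 (0.906) and Myc to Pfkfb4 (0.879). Among members, Sox11 and Smad1 (0.95) and Klf7 and Stat3 (0.89) were most alike, while Jun had 0.76 with Klf9, 0.74 with Klf4, 0.26 with Atf3 and -0.32 with Sox11.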

How the data were processed

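The deposited counts are unscaled UMI counts that the authors obtained from Cell Ranger (3.0.2 per the submitters' notes, 3.1.0 in the matrix headers) against mm10. Cells were clustered here with Seurat 5.3.0 in R 4.3.3 (2000 variable genes, 20 dimensions, resolution 0.18 for classes and glia, 0.3 for neurons), with 131 genes held out. Library A holds 40355401 UMIs and B 38945848. Scrublet (scanpy 1.11.5) called 2 and 3 cells as doublets, too few to have worked, so doublets may remain.

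For the tests, edgeR 4.0.16 was run on summed counts (quasi-likelihood fit, TMM, filterByExpr, library block) with 3 residual degrees of freedom for classes, 4 for glial and 6 for neuron clusters, Benjamini-Hochberg adjustment and a threshold of 0.05. The SE was derived from the test, as the absolute log2 fold change divided by the square root of the quasi-likelihood F statistic. The SD is over 2 libraries. Cells were thinned without replacement, and odds ratios over all neurons of a library had 0.5 added to each cell of the table. Those within clusters had nothing added. On simulated counts for neurons against glia (11553 genes), 86% of 1.5-fold, 100% of 2-fold and 86% of 0.5-fold changes were recovered, and 4.12% of 194 calls were false. There the classes had equal means apart from 50 genes at each fold, and a common dispersion was used for all genes. In the data 34.1% of all genes were higher in neurons and 48.4% lower, so the false share does not carry over to the tests above.

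The members and lists were chosen with earlier results of these data known. Named genes are the members, up to 4 genes per list and direction with the largest change in neurons against glia, and the 3 nearest genes per member, of which the text gives some. Alternatives were DESeq2 1.42.0, other filters, scalings, resolutions and depths, and each library left out. Dropping N5, N6 and N9 was added after seeing the data.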

Additional observations from a re-analysis of the deposited data

How the results depend on the processing

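Counts of all genes and of members called stayed within 1.5 times under every alternative run, and the 9 members called against glia kept their calls in every alternative with a test. Values near 0 changed sign. Klf6 against glia was -0.05 with no filter on low counts and -0.04 to 0.05 with a library left out, and passed at 0.34 under a 5% mitochondrial limit, 0.31 with no gene held out and 0.23 with DESeq2. The median of all genes moved from -0.22 to 0.05 with no gene held out and to -0.03 with DESeq2, but only to -0.18 under the 5% limit. Klf9 against fibroblasts was 0.01 with no gene held out, 0 without neurons under 5000 UMIs, 0.1 without TMM and -0.01 to 0.23 with a library left out. Against macrophages, Jun was 0.39 (5% mitochondrial limit, adjusted p = 0.015, edgeR), 0.03 (no gene held out), 0.04 (without the highest Scrublet scores), 0.06 (without TMM) and -0.23 to 0.38 (a library left out). Klf4 was 0.03 (5% limit) and -0.22 to 0.02 (a library left out), Klf6 -0.17 (without the highest Scrublet scores), -0.03 (DESeq2) and -0.14 to 0.47 (a library left out), and Myc 0 (without the highest Scrublet scores). Values with a library left out are differences of log2(CPM + 1) without TMM and carry no test. The causes were not tested.

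Depth sets the single-cell values. The mean number of members per neuron was 5.15 at 5000 UMIs, 7.54 at 20000, 7.22 without thinning and 4.75 where at least 2 UMIs were required. The odds ratio of Atf3 and Sox11, averaged over libraries, was 16.0 at 5000 UMIs, 6.82 at 20000 and 43.6 with at least 2 UMIs, and that of Atf3 and Jun was 6.11, 25.6 and, without thinning, 6.85. All stayed above 1. The tests compare classes and clusters within the same libraries, with the library as a block. Without it, 4131 genes were higher and 5829 lower in neurons than in glia, and no member's call between classes changed.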
